A study of Homo sapiens with 8 samples.

Results

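The host genes of snoRNAs are genes whose introns carry small nucleolar RNAs. The set described here was chosen by name from the GENCODE annotation of GRCh37, as every gene with a symbol of SNHG (small nucleolar RNA host gene) followed by a digit, plus GAS5, DANCR and EPB41L4A-AS1. It held 31 genes of the 64486 in the annotation. All 31 were annotated as lncRNA genes, beside 18671 other lncRNA genes. The names fitted the annotation, since RefSeq (GRCh38.p14) placed at least 1 snoRNA inside 30 of the 31 genes and GENCODE inside 21, and each of the 31 had one in at least 1 of the 2. SNHG27 was the gene for which RefSeq had none.

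FLI1, an ETS family transcription factor, was mapped by ChIP-Seq in the established lymphoma lines OCI-Ly1 and VAL, both of the germinal center B-cell type (GCB). The cells carried no treatment or genetic change in the labels, and a rabbit polyclonal antibody against FLI1 was used on 2 replicates per line. Input DNA, of which there were 4 samples, was not used here, and nothing in a peak list allows a check of the cell type. The list of OCI-Ly1 replicate 1 held 37 intervals, 33 of them longer than 1 Mb, so that OCI-Ly1 rested on replicate 2 alone, while both VAL replicates could be used. The 3 libraries are written OCI-Ly1, VAL 1 and VAL 2 below.

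The values are those of the deposited peak lists, in which each peak has a -log10 q, where q is the p-value of its summit adjusted for the number of tests, and a fold enrichment, the ratio of the reads at the summit to the local background with 1 added to each. A gene was called bound in a library when its best peak by -log10 q, centred within 3 kb of any of its transcription start sites (TSS), reached 3, which is an FDR of 0.001. This left 5354 passing peaks genome wide in OCI-Ly1, 973 in VAL 1 and 6474 in VAL 2. The lists hold no counts, but the fold and the p-value together give the reads at each summit. The passing peaks had a median of 8, 17 and 8 reads at the summit in these libraries, over a median local background of 0.419, 2.26 and 0.363 reads. The background in VAL 1 was thus the highest of the 3, and its list the shortest.

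As background, snoRNAs guide the modification of ribosomal RNA. Box C/D snoRNAs, named SNORD, direct 2′-O-methylation, box H/ACA snoRNAs, named SNORA, direct pseudouridylation, and scaRNAs act in the same way on spliceosomal RNA in Cajal bodies. In mammals most are cut out of introns after splicing, so that the promoter of the host gene also drives the snoRNA. The spliced RNA of many hosts codes for no protein and is often degraded, and several hosts, such as GAS5, start with a terminal oligopyrimidine tract, as ribosomal protein genes do. ETS factors bind a GGAA core, and FLI1 and its close relatives prefer it within CCGGAAG or CCGGAAA.

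The sequences below are the plus strand of GRCh37 around the summits of the bound host genes on which the results turn, with each CGGAA on either strand in capitals. The first 3 are the 101 bases centred on the summit in OCI-Ly1, at SNHG11 (chr20:37075228-37075328), SNHG17 (chr20:37063988-37064088) and SNHG8 (chr4:119199815-119199915). They are shown because the summits lay within 14 bp of a TSS of the host gene itself and 20065 bp or further from any protein coding start. The bound host genes SNHG5, SNHG7, SNHG9 and SNHG27 had no CGGAA within 50 bp of a passing summit and are not shown. SNHG6, with a CGGAA within 50 bp of its summit in VAL 2, is not shown either.
SNHG11: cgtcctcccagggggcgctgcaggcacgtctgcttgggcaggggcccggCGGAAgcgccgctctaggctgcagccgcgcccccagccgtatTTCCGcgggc
SNHG17: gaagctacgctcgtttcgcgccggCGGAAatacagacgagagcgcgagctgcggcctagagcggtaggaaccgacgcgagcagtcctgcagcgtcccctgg
SNHG8: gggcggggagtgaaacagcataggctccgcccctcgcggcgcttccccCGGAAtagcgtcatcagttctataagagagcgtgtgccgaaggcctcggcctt

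The next 4 are stretches of 30 bases around a CGGAA within 50 bp of a summit where the peak lay next to the start of a protein coding gene as well. They come from GAS5 in OCI-Ly1 (chr1:173837439-173837468), SNHG19 in OCI-Ly1 (chr16:2205654-2205683), SNHG20 in VAL 2 (chr17:75084732-75084761) and SNHG3 in VAL 2 (chr1:28832984-28833013).
GAS5: tgagtgatttccTTCCGgcacgtcgcccgc
SNHG19: cgacgaggccgcCGGAAgtcgtagtttcgg
SNHG20: tgacggagctacTTCCGcccaggggagtgg
SNHG3: accgcgcctggcCGGAAatcatgtaattta

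FLI1 peaks passed at 12 of the 31 host genes in at least 1 library (38.7%, 95% Wilson interval 23.7 to 56.2%), where 10.4% of the other lncRNA genes had one. In OCI-Ly1, 7 host genes were bound (22.6%, 11.4 to 39.8%) beside 6.89% of the other lncRNA genes. In VAL 1 it was 1 host gene, SNHG11 (3.23%, 0.572 to 16.2%), beside 1.11%. In VAL 2 it was 10 host genes (32.3%, 18.6 to 49.9%) beside 7.61%. The intervals cover counting error over genes only. The set was chosen with earlier results of these data known, so the intervals are no test against the other lncRNA genes. The host genes also had more TSS, with a median of 10 against 1, and so a wider window for a peak. The median best -log10 q of the host genes was 1.61, 0.117 and 2.29 in these libraries, against 0.740, 0 and 0.952 for the other lncRNA genes, with a gene without a listed peak counted as 0. The median host gene was thus below the threshold in every library.

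**Figure D1:**
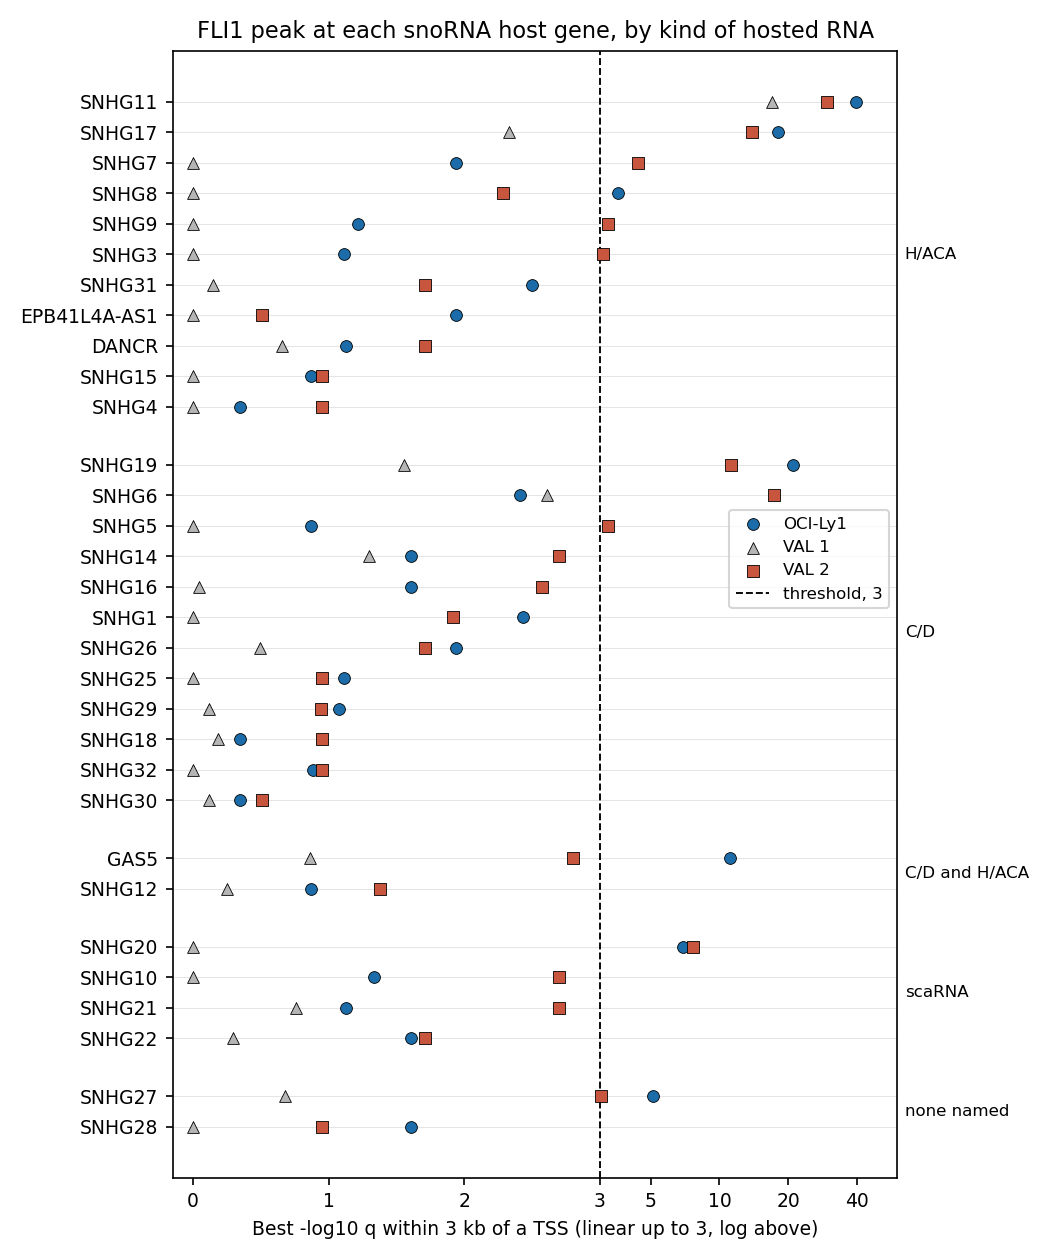
Best -log10 q of the FLI1 peaks within 3 kb of a TSS for each of the 31 host genes (rows, grouped by the kind of RNA that RefSeq names inside them) in the 3 libraries (symbols). The axis is linear up to 3 and logarithmic above, the dashed line is the threshold of 3, and a gene without a listed peak is drawn at 0. SNHG11 has all 3 symbols right of the line, and 19 genes have none.

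SNHG11 was the host gene bound in all 3 libraries, 1 of 31 (3.23%) where 0.948% of the other lncRNA genes were. It carries the H/ACA snoRNAs SNORA60 and SNORA71E and lies on chromosome 20 (37074986 to 37079583, plus strand). The -log10 q of its peak was 39.4 in OCI-Ly1, 16.9 in VAL 1 and 29.4 in VAL 2. The peak was a strong one in each library, ranking 92, 74 and 180 among the passing peaks of the whole genome. The fold enrichment over the local background was 21.2, 9.73 and 17.7, from 31, 27 and 23 reads at the summit. The fold was lowest in VAL 1, where the local background was 1.88 reads against 0.512 and 0.359 in the other libraries. The summit of OCI-Ly1 was 15 bp from that of VAL 1 and 11 bp from that of VAL 2, and the summits lay 14 bp inside a TSS, on a TSS and 3 bp inside a TSS in OCI-Ly1, VAL 1 and VAL 2. The closest protein coding start, of RALGAPB, was 26166 bp or further from each summit.

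SNHG17, the host of the H/ACA snoRNAs SNORA71A to SNORA71D, is the neighbour of SNHG11 and is transcribed away from it, from a start 10.9 kb before that of SNHG11. Its -log10 q was 18.1 in OCI-Ly1, 2.33 in VAL 1 and 13.9 in VAL 2, from 17, 12 and 14 reads. The second of these was below the threshold, although its summit lay 8 bp before a TSS, as in OCI-Ly1. In VAL 2 the summit was 5 bp inside a TSS. Between the 2 genes and along both of them no other listed peak reached the threshold in any library, so that the 2 passing peaks sat at the 2 starts, as the map of the region shows.

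**Figure D2:**
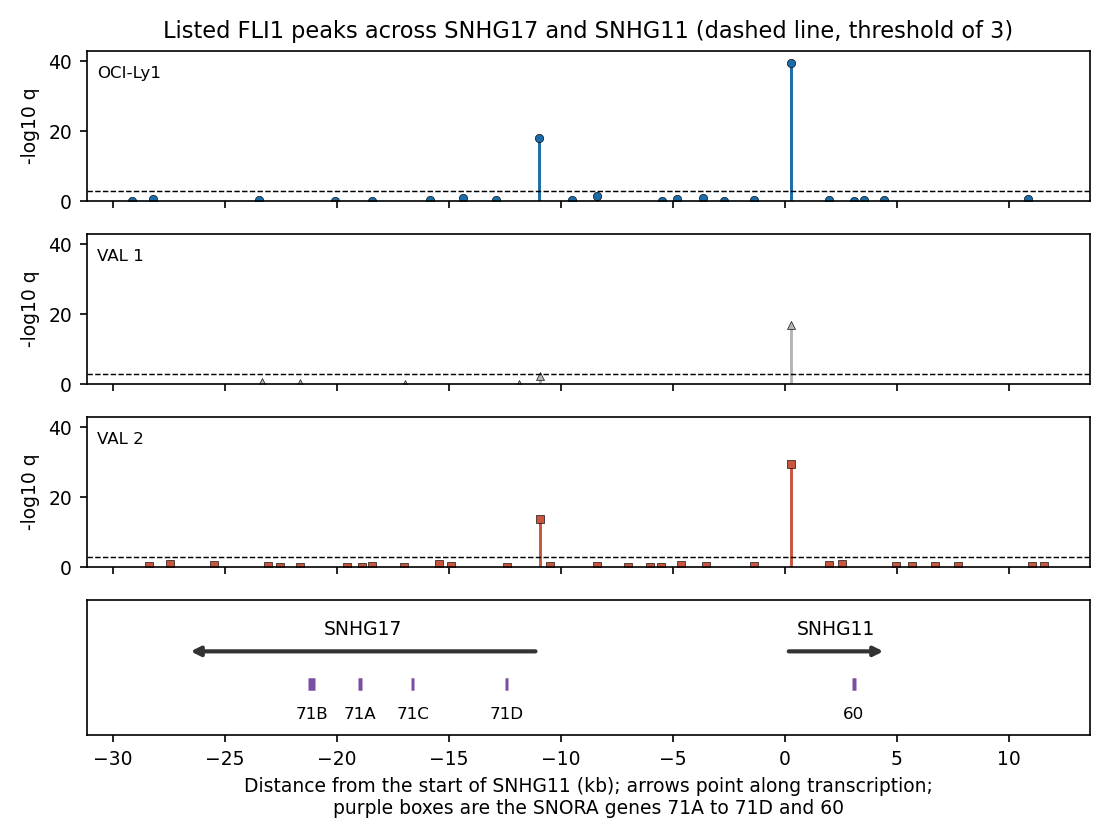
Listed FLI1 peaks (stems, at the peak centre) along SNHG17 and SNHG11 on chromosome 20 in the 3 libraries, with -log10 q on the vertical axis and kb from the start of SNHG11 on the horizontal axis. The tall stems stand at the starts of the 2 genes, with 39.4 and 18.1 in OCI-Ly1 and 29.4 and 13.9 in VAL 2, while in VAL 1 the stem at SNHG17 stays under the dashed threshold of 3 at 2.33.

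The kinds of host are those of the RefSeq names. Of the 11 hosts in which RefSeq names SNORA genes only, 6 were bound in at least 1 library, beside the 10.4% of other lncRNA genes and 27.4% of protein coding genes. The 4 of these other than SNHG11 and SNHG17 had weaker peaks, each passing in 1 library. SNHG7, host of SNORA17A and SNORA17B, had a -log10 q of 1.94 in OCI-Ly1 and 4.42 in VAL 2 and no listed peak in VAL 1. The summit was 15 bp inside a TSS in both libraries. SNHG8, host of SNORA24, passed in OCI-Ly1 with 3.59 from 6 reads and had 2.29 from 5 reads in VAL 2, with no listed peak in VAL 1. Its summits were 2 and 1 bp inside a TSS, and the call differed between the lines by 1 read at almost the same position. SNHG3, host of SNORA73A and SNORA73B, had 1.12, 0 and 3.11 in the order OCI-Ly1, VAL 1 and VAL 2. The summit of SNHG3 in VAL 2 was 123 bp inside a TSS of SNHG3 and 417 bp from a start of RCC1, the exchange factor of the GTPase Ran. The 31 bases centred on this summit occurred 3 times in GRCh37. SNHG9, host of SNORA78, had 1.22, no listed peak and 3.27. Its summit in VAL 2 was 173 bp before a TSS of SNHG9 and 81 bp from the start of RPS2, a protein of the small ribosomal subunit.

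Among the 12 hosts with SNORD genes only, 3 were bound in at least 1 library (background 10.4% of other lncRNA genes), and the difference between the kinds was not tested. SNHG19, a short gene of 614 bp that hosts SNORD60, had 21.0 in OCI-Ly1, 1.56 in VAL 1 and 11.2 in VAL 2, from 21, 11 and 13 reads. Its passing summits lay 300 and 315 bp before its TSS but 7 and 22 bp from a start of TRAF7, which codes for a ubiquitin ligase. The position does not tell which of these genes the peak belongs to. SNHG6, host of SNORD87, had 2.41 in OCI-Ly1, 2.61 in VAL 1 and 17.2 in VAL 2, from 8, 21 and 20 reads. The 2 VAL replicates thus had almost the same reads at this summit, and the local background was 5.52 in the first and 0.807 in the second. The best peak of SNHG6 was 21 bp inside a TSS, 4 bp before one and 13 bp inside one in the 3 libraries. SNHG5, host of SNORD50A and SNORD50B, had 0.873, no listed peak and 3.27, with a passing summit 477 bp before a TSS in VAL 2.

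GAS5, the growth arrest-specific gene with 10 SNORD genes and SNORA103 in RefSeq, had 11.2 in OCI-Ly1, 0.861 in VAL 1 and 2.80 in VAL 2. The reads at the summit were 13, 13 and 7, over a local background of 0.475, 3.85 and 0.636. The summit lay 287, 342 and 219 bp before a GAS5 TSS and 98, 43 and 132 bp from a start of ZBTB37, a zinc finger gene read from the opposite strand. GAS5 was therefore called in OCI-Ly1 only, and its value in VAL 2 was the highest of those that missed the threshold. SNHG12, the other host with both kinds, had 0.873, 0.25 and 1.38.

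Of the 4 hosts of scaRNAs, SNHG20, which carries SCARNA16, was bound in both lines, with 6.96 in OCI-Ly1 and 7.65 in VAL 2, from 9 and 10 reads, and 0 in VAL 1. The summits were on a TSS of SNHG20 and 6 bp before one, and 28 and 43 bp from a start of SEC14L1. SNHG10, SNHG21 and SNHG22 did not pass in any library.

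SNHG27, inside which GENCODE lists SNORA70, passed in both lines but not at the same place. It had 5.10 in OCI-Ly1, 0.674 in VAL 1 and 3.04 in VAL 2, from 7, 11 and 8 reads, and the summits of OCI-Ly1 and VAL 2 lay 24681 bp apart, each over 1 kb from a TSS. The gene is 63906 bp long with 16 TSS, so that 41.1 kb of sequence lay within 3 kb of a start, and 5 peaks passed there in OCI-Ly1. The 31 bases centred on the summit occurred 15 times in GRCh37 for OCI-Ly1 and 6 times for VAL 2, whereas the 31 bases at the summits of the bound host genes other than SNHG27 and SNHG3 occurred once. Inside SNHG27 but further than 3 kb from any TSS, and so not counted, peaks reached 3.37 in VAL 1 and 6.19 in VAL 2.

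Both cell lines had a passing peak at 5 host genes (16.1%, 7.09 to 32.6%), SNHG11, SNHG17, SNHG19, SNHG20 and SNHG27, where 4.18% of the other lncRNA genes did. Their summits in OCI-Ly1 and VAL 2 were 11, 9, 15 and 71 bp apart at the first 4 genes. Of the 7 host genes that passed in 1 of these 2 libraries, 5 had their best peaks within 100 bp of each other in the 2, and so did 4 of the 19 that passed in neither. With 1 usable library for OCI-Ly1, a difference between the lines cannot be told apart from one between libraries.

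The 19 host genes without a passing peak were DANCR, EPB41L4A-AS1, SNHG1, SNHG4, SNHG10, SNHG12, SNHG14, SNHG15, SNHG16, SNHG18, SNHG21, SNHG22, SNHG25, SNHG26, SNHG28, SNHG29, SNHG30, SNHG31 and SNHG32. All 19 had a listed peak in OCI-Ly1 (median -log10 q 1.13, highest 2.50 at SNHG31) and in VAL 2 (median 1.38, highest 2.70 at SNHG10, SNHG14 and SNHG21), and 8 had none in VAL 1, where SNHG14 was highest with 1.30. SNHG1, host of SNORD25 to SNORD31, had 2.43 from 6 reads in OCI-Ly1, at a summit 15 bp from a start of SLC3A2, and 1.92 in VAL 2. SNHG14, the long imprinted host of the SNORD115 repeats, had the most TSS of all host genes, 111 of them with 205.0 kb within 3 kb, and still had no passing peak, with 1.61, 1.30 and 2.70. The lowest number of reads at any passing summit was 6 in OCI-Ly1, 8 in VAL 1 and 6 in VAL 2. Such a number did not suffice by itself, as SNHG1 had 6 in OCI-Ly1 and SNHG10 and SNHG21 had 6 in VAL 2. Whether these genes have weaker binding cannot be told from the lists. Just inside the threshold were SNHG27 at 3.04, SNHG3 at 3.11, SNHG5 and SNHG9 at 3.27 and SNHG8 at 3.59, and just outside were GAS5 at 2.80, SNHG10, SNHG14 and SNHG21 at 2.70, all in VAL 2, and SNHG6 at 2.61 in VAL 1.

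Passing summits at the host genes were within 500 bp of a TSS of the host gene at 6 of 7 bound host genes in OCI-Ly1 and 9 of 10 in VAL 2, with SNHG27 the exception in both, and at SNHG11 in VAL 1. Among the bound other lncRNA genes 61.7%, 57.0% and 64.4% had the summit that close in OCI-Ly1, VAL 2 and VAL 1. The median distance was 14 bp in OCI-Ly1 and 69 bp in VAL 2, against 296 and 373 bp for the other lncRNA genes. The host genes had a median of 10 TSS and the other lncRNA genes of 1, which by itself shortens the distance to the closest of them. Measured from the 5′ end of the gene only, the summit was within 500 bp at 4 of 7 bound host genes in OCI-Ly1 and 7 of 10 in VAL 2, against 56.1% and 50.7% of the bound other lncRNA genes. The summit was also within 1 kb of a protein coding start at 3 of 7 bound host genes in OCI-Ly1 (GAS5, SNHG19, SNHG20) and 5 of 10 in VAL 2 (SNHG3, SNHG5, SNHG9, SNHG19, SNHG20). Among the bound other lncRNA genes the share was 67.3% in OCI-Ly1 and 64.7% in VAL 2.

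**Figure D3:**
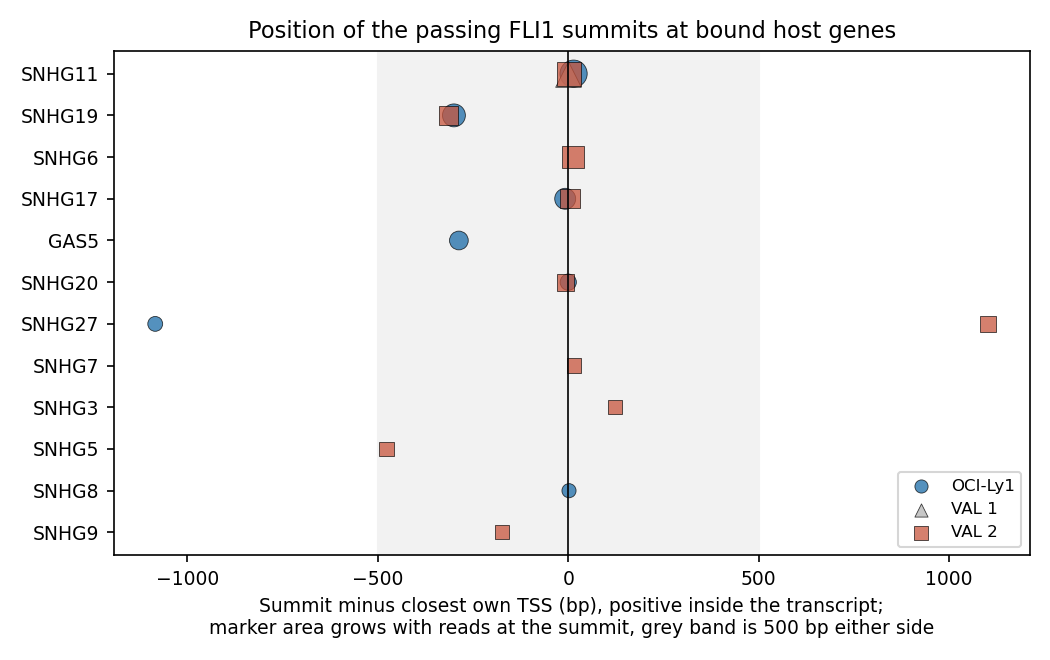
Distance in bp from the closest own TSS to each passing summit of the 12 bound host genes (rows), with symbols for the libraries, marker area for the reads at the summit and a grey band for 500 bp either side. The summits of SNHG11, SNHG17, SNHG20, SNHG6, SNHG7 and SNHG8 stand on or next to 0, those of SNHG19 and GAS5 near -300 bp, and those of SNHG27 outside the band.

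Most of the bound host genes lacked the preferred ETS letters at the summit, as did most passing peaks near a TSS in OCI-Ly1 and VAL 2. CCGGAAG or CCGGAAA stood within 50 bp of the summit, on either strand, at 2 of 7 bound host genes in OCI-Ly1 (GAS5, SNHG19) and 2 of 10 in VAL 2 (SNHG3, SNHG19), and not at SNHG11 in VAL 1. Within 100 bp of the summit the count in VAL 2 was 4 of 10. Of all passing peaks within 3 kb of any TSS, 44.7% had either word within 50 bp in OCI-Ly1, 37.7% in VAL 2 and 53.5% in VAL 1. The shorter CGGAA, which both words contain, was added after the letters at these summits were seen, so its counts at the host genes are descriptive only. It was present at 6 of 7 bound host genes in OCI-Ly1, 6 of 10 in VAL 2 and 1 of 1 in VAL 1, where 62.9%, 54.4% and 66.7% of those peaks had it. In windows of the same length moved by 250 bp the share of all those peaks with CGGAA was 14.5%, 14.0% and 14.5%. The CGGAA at 3 of the host genes bound in both lines, SNHG11, SNHG17 and SNHG20, followed a G. GCGGAA was present at 20.5% of the passing promoter peaks of OCI-Ly1 and 17.5% of those of VAL 2. The plain GGAA was present at each bound host gene in each library, but also at 86.4%, 83.6% and 89.0% of the promoter peaks in the order above.

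The letters can be seen in the sequences given above. At SNHG11 the word closest to the summits was GCGGAAG. The summits of OCI-Ly1, VAL 1 and VAL 2 lay 1 bp before, 14 bp after and 12 bp before its centre on the plus strand. A second word, GCGGAAA, stood 43 and 28 bp from the SNHG11 summits of OCI-Ly1 and VAL 1. At SNHG17 the word was GCGGAAA, 24 and 33 bp from the summits of OCI-Ly1 and VAL 2. At SNHG20 the words differed between the libraries, with GCGGAAG 42 bp from the summit of VAL 2. GCGGAAC and GCGGAAT stood 16 and 41 bp from the SNHG20 summit of OCI-Ly1 (not shown). CCGGAAG stood 11 bp from the SNHG20 summit of VAL 1, which did not pass. SNHG8 had CCGGAAT with the summit on its centre. SNHG19 and GAS5 had CCGGAAG, 38 and 33 bp from the summit in OCI-Ly1, and SNHG3 had CCGGAAA, 12 bp from the summit. At SNHG6 (not shown) CCGGAAG stood 24 and 7 bp from the summits of OCI-Ly1 and VAL 1, which did not pass. The match of letters is a description and says nothing of which site is bound.

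In the promoters, taken as the 250 bases before and 50 after the start of the canonical transcript, 5 of 31 host genes (16.1%) had CCGGAAG or CCGGAAA on either strand, namely SNHG3, SNHG6, SNHG10, SNHG21 and SNHG26, against 7.0% of the other lncRNA genes. In OCI-Ly1 none of these 5 was bound and 7 of the 26 host genes without the word were (26.9%), whereas 30.5% of the other lncRNA genes with it were bound and 5.11% of those without. In VAL 2 it was 2 of the 5, SNHG3 and SNHG6, and 8 of the 26 (30.8%), against 30.8% of the other lncRNA genes with the word and 5.86% of those without. A start with C followed by a pyrimidine run of at least 5 bases was found at GAS5, SNHG12 and SNHG29, 3 of 31, and at 2.77% of the other lncRNA genes. The median GC content was 61.7% for the host genes and 49.0% for the other lncRNA genes, and 63.7% for protein coding genes.

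The share bound among the other lncRNA genes moved with these properties of the promoter. With a promoter GC of 60% or more it was 18.0% in OCI-Ly1, 2.71% in VAL 1 and 18.9% in VAL 2, and of the 16 host genes with such promoters 2 were bound in OCI-Ly1 and 5 in VAL 2. With a promoter GC of 50 to 60% it was 6.41%, 1.0% and 7.70%, and of 14 host genes 4 were bound in OCI-Ly1 and 4 in VAL 2. Under 50% it was 2.32%, 0.475% and 2.72%, and the 1 host gene there, SNHG11, was bound in each library. With 10 or more TSS the share was 11.8%, 2.10% and 14.5%, over a median window of 19.1 kb. Of 16 host genes with as many TSS, over a median window of 9.17 kb, 5, 1 and 5 were bound. Within 1 kb of a protein coding TSS the share was 19.1%, 2.99% and 20.3%, and of 13 host genes 3 and 5 were bound in OCI-Ly1 and VAL 2. Further away it was 3.32%, 0.567% and 3.90%, and of 18 host genes 4, 1 and 5 were bound. Of host genes with a promoter GC of 60% or more, the share bound (12.5%) was thus below that of such other lncRNA genes in OCI-Ly1 and above it (31.2%) in VAL 2, with few genes in each. The part of GC, of the number of TSS and of neighbouring genes in the count of bound host genes was not tested.

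**Figure D4:**
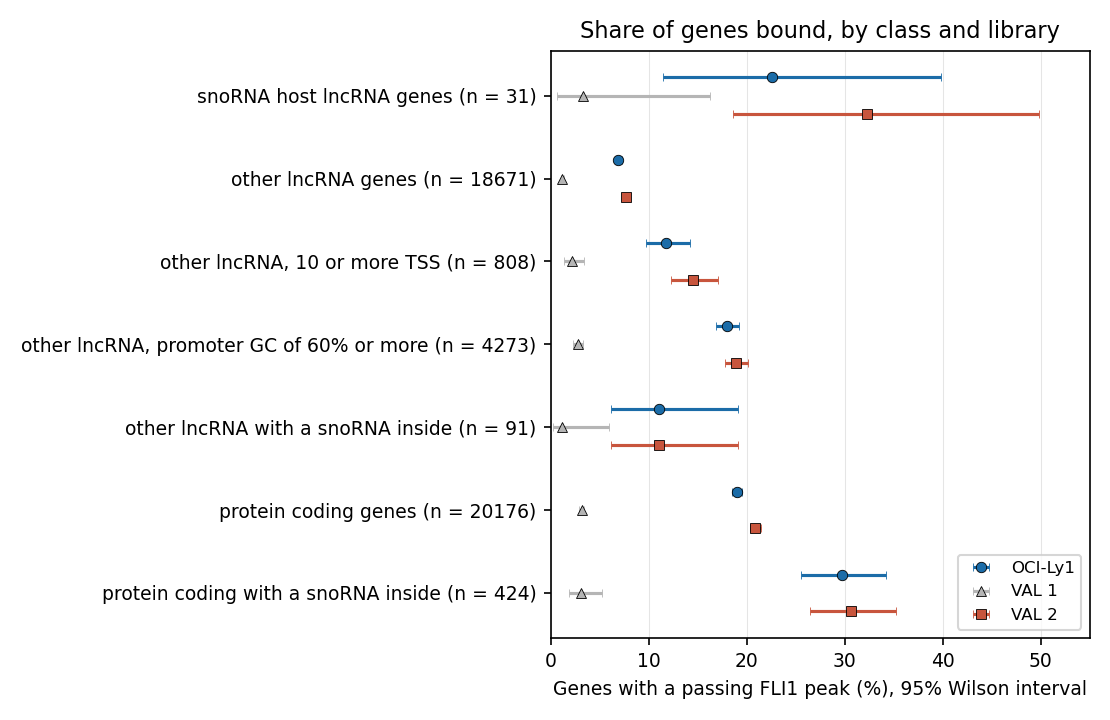
Percentage of genes bound in each library (symbols) with 95% Wilson intervals, for the host genes, for the other lncRNA genes and 3 subsets of them, and for protein coding genes with and without the condition that GENCODE places a snoRNA inside. The host genes reach 22.6% in OCI-Ly1 and 32.3% in VAL 2 with wide intervals, near the 29.7% and 30.7% of protein coding genes with a snoRNA inside and above the 6.89% and 7.61% of other lncRNA genes.

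Carrying a snoRNA did not go with the same share in every class. GENCODE placed a snoRNA on the same strand inside 91 other lncRNA genes, of which 11.0% were bound in OCI-Ly1, 1.10% in VAL 1 and 11.0% in VAL 2. In the same order it was 29.7%, 3.07% and 30.7% of the 424 protein coding genes with a snoRNA inside, against 18.7%, 3.14% and 20.6% of those without. RefSeq, without strand, placed a snoRNA or scaRNA inside 52 other lncRNA genes, of which 9.62%, 0% and 7.69% were bound. It placed one inside 543 protein coding genes, of which 26.3%, 3.13% and 29.8% were bound. Among the host genes themselves the share in VAL 2 was lower with a snoRNA inside by GENCODE than without. With one, 5 of 21 (23.8%) were bound in OCI-Ly1, 5 of 21 in VAL 2 and 6 of 21 (28.6%) in at least 1 library, and without one it was 2 of 10, 5 of 10 and 6 of 10. RefSeq placed a snoRNA or scaRNA inside each of those 10, so that the GENCODE split of the host genes is incomplete, and the difference was not tested. Among the 91 other lncRNA genes with a snoRNA inside by GENCODE, UBA6-DT, which holds SNORA62, was bound in all 3 libraries. Its -log10 q was 5.45, 4.88 and 9.67. The share of host genes lay between these classes in OCI-Ly1, and its intervals in both that library and VAL 2 included the shares of protein coding genes.

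The proteins that bind and assemble snoRNAs were bound at 7 of 20 genes in OCI-Ly1 (35.0%), where 19.0% of all protein coding genes were, at 2 in VAL 1 beside 3.14%, and at 7 in VAL 2 beside 20.8%. At least 1 library had a passing peak at 10 of the 20, beside 27.4%, and both lines at 5, beside 12.6%. The median best -log10 q of the 20 genes was 2.30, 0.247 and 2.54, against 1.22, 0.183 and 1.63 for all protein coding genes. The 5 came from both classes of particle. SNU13, which recognises the kink-turn of C/D snoRNAs, had 19.0, 0.382 and 19.2 in OCI-Ly1, VAL 1 and VAL 2, and NOP56, a core protein of the C/D particle, 14.1, 0.183 and 11.3. NOP10, a core protein of the H/ACA particle, passed in all 3 libraries, with 13.8, 12.5 and 11.0. GAR1, of the same particle, had 3.22, 0.495 and 3.79, and RUVBL1, an ATPase of the assembly machinery, 10.8, 0.782 and 14.3.

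The catalytic subunits did not pass in any library. FBL, the methyltransferase of the C/D particle, had 0.873, 0.427 and 0.952, and DKC1, the pseudouridine synthase of the H/ACA particle, 0.873, 0.495 and 2.27. Single libraries called TCOF1 (6.48) and WRAP53 (4.46) in OCI-Ly1, NOP58 (3.01) in VAL 1, and NOLC1 (8.15) and SHQ1 (4.45) in VAL 2. NHP2, NAF1, RUVBL2, NUFIP1, ZNHIT3, ZNHIT6, PIH1D1 and COIL had no passing peak.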

How the data were processed

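FLI1 ChIP-Seq was made in OCI-Ly1 and VAL, with 2 replicates per line. The authors mapped reads to GRCh37 with bowtie2, kept single positions of quality 10 or more without duplicates with SAMtools, and named HOMER for the peaks. The submitters' processing notes name hg19, CASAVA 1.4 and BWA. The deposited lists, 1 per library, have the form of MACS2 output. The control and the settings are not given in the sources used here. All peaks fell within the chromosomes of GRCh37. The deposited fold is the ratio of the summit pileup to the local background, with 1 added to each. The deposited -log10 p and -log10 q were made by the authors' caller from p-values and q-values of the summit. The deposited score, 10 times the -log10 p, was not used.

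Peaks were joined to GENCODE release 44 on GRCh37 by their centre, with any TSS of a gene within 3 kb. Reads at a summit were solved from the fold and the -log10 p, to within 0.0005. Wilson intervals of 95% were made with SciPy 1.17.1, and sequences were read with pysam 0.24.0 and samtools 1.23.1. RefSeq (GRCh38.p14) gave only names of hosted RNAs and which genes lay inside which, matched by symbol for 31 of 31 host genes, without strand. The scripts were tested on simulated data. No list test was run. Every host gene was accounted for, with full values for those bound and those near the threshold, and the 20 snoRNP genes were listed by role. The members and lists were chosen with earlier results of these data known, and CGGAA was added after the letters at the summits were seen. The replicates were taken from the titles, and nothing says whether they were separate cultures.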

Additional observations from a re-analysis of the deposited data

How the results depend on the processing

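The order of host genes over other lncRNA genes in OCI-Ly1 and VAL 2 held under each alternative tried for the peaks and the TSS. A -log10 q of at least 2 gave 10, 3 and 16 bound host genes in OCI-Ly1, VAL 1 and VAL 2, with 11.4%, 1.88% and 13.6% of other lncRNA genes. It gave 8 in both lines and 3 in all libraries. At least 5 gave 6, 1 and 5, with 3.98%, 0.616% and 4.24%, and 7 in at least 1 library. A distance of 1 kb gave 7, 1 and 9 host genes, with 5.37%, 0.884% and 5.68% of other lncRNA genes. The closest TSS only gave 5, 1 and 8, with 2.97%, 0.423% and 3.31%. The 5′ end only gave 7, 1 and 9, with 6.58%, 1.08% and 7.21%. Leaving out peaks within 1 kb of a protein coding TSS gave 4, 1 and 5, with 2.30%, 0.370% and 2.75%. It gave 6 in at least 1 library and 3 in both lines. The counts over more than 1 library, here and below, have no share of other lncRNA genes beside them. Leaving out a VAL moved the count in at least 1 library between 7 and 12, in both lines between 1 and 5 and in all libraries between 1 and 5, and the loss came with VAL 2. With OCI-Ly1 replicate 1 added, all libraries had 0. For the letters at the summit, GGAA gave 7, 1 and 10 host genes and CGGAA 6, 1 and 6 in OCI-Ly1, VAL 1 and VAL 2, and in VAL 2 a window of 100 bp gave 4 and a -log10 q of at least 5 gave 1. A fold of at least 4 and the summit in place of the centre moved no count by more than 1.5 times. No paired analysis was possible because no test between groups was run and OCI-Ly1 had 1 usable library. The weak peaks rest on 6 to 8 reads, and the peak lists do not give the depth of the libraries.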
